A study of Homo sapiens with 6 samples.

Results

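The genes described here are the hosts of N4-acetylcytidine (ac4C) peaks in the acRIP library labelled SW480. Of the 58302 genes in the Input table of the acetylated RNA immunoprecipitation (acRIP-seq), 14272 reached at least 1 FPKM (fragments per kilobase of exon, scaled to the size of the library) in the Input labelled SW480. Of these, 5636 had at least 1 peak in the list called for SW480 and 8636 had none. The hosts made up 39.5% of all genes at this Input level, and 5312 of 10507 protein-coding genes, or 50.6%. The study sequenced 6 libraries from the human colorectal cancer lines SW480 and DLD-1, both labelled wild type and untreated, with 1 library per group. Each line gave an Input of total RNA, an acRIP library pulled down with an antibody against ac4C and a RIP library pulled down for NAT10. No group was replicated, so no test between groups was made, and each share is given with an exact (Clopper-Pearson) 95% binomial interval that covers the counting of genes or peaks only.

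ac4C is an acetyl group on the N4 position of cytidine. NAT10 is the human enzyme that writes it, and the mark has long been known from transfer RNA and 18S ribosomal RNA, where it helps decoding and ribosome assembly. In messenger RNA it has been mapped by antibody pull-down, in which a peak is a stretch of transcript with more fragments in the pull-down than in the Input.

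The peak list also gives sites of a 12-base pattern, 4 Cs that are each followed by 2 bases of any kind. A few of these sites are printed with 9 bases on either side and the pattern in capitals. KIF23, a kinesin of the spindle midzone, is shown because it is the transcript the study followed, and its site is read from the wild-type RNA probe of the study, which covers the peak (chr15:69448185-69448214, plus strand, GRCh38). The others are the hosts with the highest peak folds among the 17 whose listed site lies in the RefSeq window from 250 bases before to 50 after the gene start (GRCh38.p14, plus strand). MT2A, a metallothionein, is at chr16:56608573-56608602, ADIRF at chr10:86968496-86968525 and RCE1, a protease of prenylated proteins, at chr11:66843233-66843262.
KIF23: uuauugugaCUUCUCCAGCCCuggucugaa
MT2A: cgctgcactCCACCACGCCTCctccaagtc
ADIRF: ccaacgtcgCTCCAGCTGCTCttgacgact
RCE1: gagccgggtCCCCTTCCGCAAgcgcccacc
The pattern is common. It occurred on the gene's strand in 74.9% of all 35116 RefSeq start windows of 300 bases and on either strand in 90.3%, so a match describes a sequence and not a site of acetylation.

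The library labels were checked before the results. VIM, the mesenchymal intermediate filament for which SW480 is known, was at 0.0881 FPKM in the Input labelled SW480 and at 51.2 in the Input labelled DLD-1. ZEB1, a repressor of epithelial genes, was at 0.494 and 4.34 in the same order, whereas the intestinal genes KRT20 (20.5 and 0.0501), CDX2 (21.9 and 6.59) and EPCAM (214 and 64.99) were higher in the Input labelled SW480. These markers go against the label of the Input. The Input of the RIP table labelled SW480 correlated with this Input at a Pearson r of 0.962 over 16278 protein-coding genes, and the acRIP-table Input labelled DLD-1 at 0.881. The NAT10 RIP library labelled SW480 correlated with this Input at 0.860 and with the acRIP-table Input labelled DLD-1 at 0.934. For the RIP library labelled DLD-1 the values were 0.942 and 0.850 in the same order, so the RIP libraries correlated better with the Input of the other label. VIM had a peak in the SW480 list with a fold of 9.37, under the lower quartile of host peaks (9.89), and none in the DLD-1 list. Of 170 protein-coding genes with at least 5 FPKM in the Input labelled DLD-1 and under 0.5 in that labelled SW480, 45 had a SW480 peak (26.5%, 20.01 to 33.8) and 30 a DLD-1 peak (17.6%, 12.2 to 24.2). Of 62 genes with the reverse pattern, 14 had a SW480 peak (22.6%, 12.9 to 35.0) and 19 a DLD-1 peak (30.6%, 19.6 to 43.7), with intervals that overlapped. Among 5447 genes with at least 5 FPKM in both Inputs, 64.4% had a SW480 and 72.3% a DLD-1 peak. Libraries are therefore named by their labels, which of them carries a wrong label was not tested, and shares are also given over the Input labelled DLD-1.

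The marker lists of other cell types were read in the same way. Of 19 squamous epithelial markers, 13 were listed at 0 in the Input labelled SW480 and their FPKM summed to 3.23, against 68.9 in the Input labelled DLD-1, where KRT5 alone was at 54.7. Yet 7 of the 19 had a SW480 peak and 5 had a fold of at least 100, among them KRT13 (13100, with an Input of 0.967 and an overlapping peak on the opposite strand), S100A9 (6710, Input listed at 0) and S100A2 (6580, Input 0.754). The 6 blood markers, including the pan-leukocyte gene PTPRC and the haemoglobin genes, had no SW480 peak, and 5 of them were listed at 0. Of 5 fibroblast markers 3 had a SW480 peak, including COL1A1 with 6 peaks at an Input of 0.278. For comparison, 6581 of all 58302 genes had a SW480 peak, and 945 of these 6581 lay under 1 FPKM. The part of RNA from other cells in the peaks was not tested.

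Among the hosts, protein-coding genes prevailed. They gave 7892 of the 8277 peaks, and the remaining 385 peaks lay in non-coding genes. Of 1495 antisense RNA genes at this Input level 183 were hosts (12.2%, 10.6 to 14), of 458 long intergenic RNAs 36 (7.86%, 5.57 to 10.7) and of 626 processed pseudogenes 34 (5.43%, 3.79 to 7.51). Of the 213 peaks of antisense genes, 148 overlapped a peak listed for another gene, 145 of them one on the opposite strand, and 130 of the 183 antisense hosts rested on such peaks alone. Whether the counting used strand is not stated, so a gene and its antisense partner cannot be told apart. Among peaks of protein-coding hosts 7.65% overlapped a peak of another gene.

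Most classes of small RNA had no peak. The exception was the only expressed small cytoplasmic RNA, BCYRN1, with 1 peak at 25.4 FPKM and an exon length of 200 bases, a gene named after its value was seen. None of 123 small nuclear RNA genes was a host. A limit of 3 counts of the total allows a share of up to 2.44%, and the exact interval one of up to 2.95%. Nor was any of 118 snoRNA genes a host (up to 2.54% and 3.08% in the same order), of 108 miscellaneous RNAs (2.78% and 3.36%) or of 93 miRNA genes (3.23% and 3.89%). The median exon length of the snoRNA genes was 134 bases, against a median peak length of 210 bases over all hosts, and the shortest peak spanned 112. Their median Input was 22.8 FPKM, above that of protein-coding genes (6.77).

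Hosts were more abundant than the other genes. The median Input of protein-coding hosts was 9.55 FPKM (quartiles 4.81 and 18.8) and that of protein-coding genes without a peak 4.86 (2.45 and 9.56), so the ranges overlapped widely. In the Input labelled DLD-1 the medians were 9.61 and 4.52. Protein-coding hosts held 63.5% of the summed FPKM of protein-coding genes. One FPKM stood for about 11 fragments per kilobase of exon in this library, as read from the steps of the values.

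The share of hosts rose with the Input and then levelled off. From 1 to 2 FPKM, 327 of 1283 protein-coding genes were hosts (25.5%, 23.1 to 28.0). The share was 38.4% (36.6 to 40.3) from 2 to 5, 51.2% (49.3 to 53.2) from 5 to 10 and 62.2% (60.1 to 64.3) from 10 to 20. From 20 to 50 it was 73.4% (70.7 to 75.9) and from 50 to 100 it was 78.7% (73.4 to 83.4). Above that the intervals overlapped, with 74% (66.8 to 80.4) from 100 to 500 and 73.3% (54.1 to 87.7) over 500. Over the Input labelled DLD-1 the share of hosts ran from 24.3% in the lowest bin to 82.4% from 50 to 100. When all gene classes were counted, the share fell again at the top, to 43.6% (30.3 to 57.7) over 500 FPKM.

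**Figure D1:**
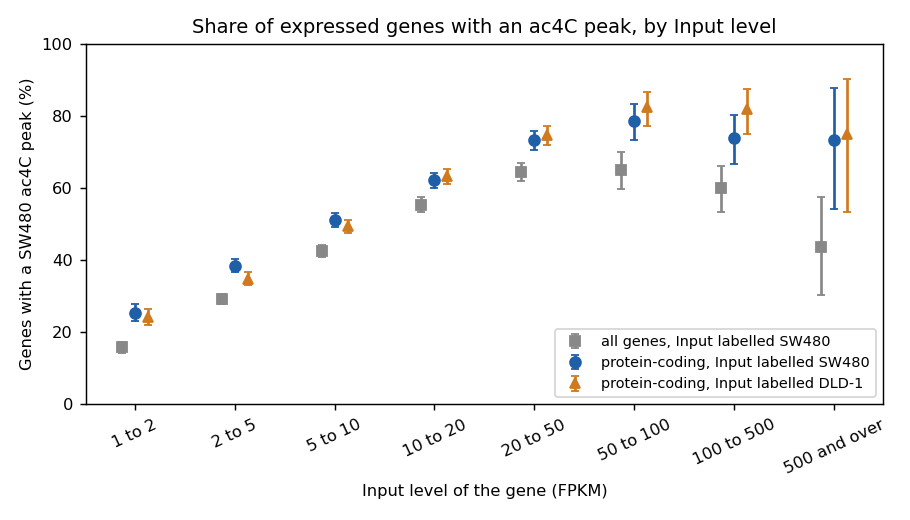
Share of genes with a SW480 ac4C peak (percent, vertical axis) in 8 bins of the Input level in FPKM (horizontal axis), for all and for protein-coding genes by the Input labelled SW480, and for protein-coding genes by that labelled DLD-1. Bars are exact 95% binomial intervals. Protein-coding shares rose from 25.5% to 78.7% and were alike over both Inputs, whereas the share of all genes turned down above 100 FPKM.

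The share of hosts varied less with exon length than with the Input. Lengths solved from the FPKM steps covered 99.0% of protein-coding genes at this Input level, with a median of 3427 bases for hosts and 3728 for the other genes. The share of hosts was 57.7% (55.3 to 60.2) among genes of 1000 to 2000 bases and 45.3% (43 to 47.5) among genes of 6000 bases or more. From 20 to 50 FPKM it was 79.7% for 236 genes of 1000 to 2000 bases and 70.5% for 173 genes of 6000 or more. The share of hosts with several peaks went the other way, from 28.6% at 1000 to 2000 bases to 39.2% at 6000 or more.

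At the threshold of 1 FPKM, hosts on both sides had a wide range of folds. The hosts just inside were DMBX1 (1.004 FPKM, fold 57.3), ARPC1B, a subunit of the actin-nucleating Arp2/3 complex (1.005, fold 869, in a peak shared with another gene on its strand), and CLDN15, a tight junction claudin (1.005, fold 13.5). Just outside were AC116562.4 (0.998, fold 14.6), C20orf24 (0.997, fold 104, also in a shared peak) and GDPD5 (0.994, fold 11.5). In all, 945 of the 6581 genes with a SW480 peak lay under the threshold, with 1259 peaks.

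Most hosts had 1 peak. Of the 5636 hosts 3694 had 1 peak (65.5%), 1414 had 2, 403 had 3, 97 had 4 and 28 had 5 or more. The median Input was 8.46 FPKM for hosts with 1 peak, 11.1 with 2, 13.5 with 4 and 10.5 with 5 or more, and the median exon length was 3212 bases with 1 peak and 4854 with 5 or more. Among protein-coding hosts the share with at least 2 peaks was 27.2% from 1 to 2 FPKM and 43.3% from 20 to 50.

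The gene with the most peaks was NEAT1, the architectural long non-coding RNA of paraspeckles, with 12 peaks at an Input of 31.6 FPKM and folds of 4.16 to 52.0. Some of its peaks overlapped each other and merged into 8 separate regions. THBS1, a secreted matrix glycoprotein, had 8 peaks at 15.4 FPKM, 6 in the coding sequence and 2 in the 3′-UTR, with folds of 4.33 to 35.9. KRI1, a nucleolar factor of small-subunit assembly, had 7 peaks at 12.5 FPKM. DFFA, the inhibitor of an apoptotic nuclease, and DNASE1, a secreted nuclease, had 6 each, at 10.5 and 7.15 FPKM, but 4 of the 6 DNASE1 peaks overlapped a peak listed for a gene on the opposite strand and cannot be told apart from it. Only 35 hosts had peaks of their own that overlapped, and after merging them 1922 hosts still had at least 2 regions, against 1942 before.

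In the 1942 hosts with several peaks, 1172 (60.4%) had all of them in the same part of the transcript. In 641 hosts they all lay in the 3′-UTR, and 664 hosts had peaks in both the coding sequence and the 3′-UTR. The closest pair of peak centres was a median of 1074 genomic bases apart, introns included. Within a host the folds were unequal. The highest fold was a median of 2.96 times the second highest, and in 326 hosts it was at least 10 times as high.

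Peaks of protein-coding hosts were mostly assigned to 3′-UTRs. Of the 7892 peaks of protein-coding hosts 4501 were assigned to 3′-UTRs (57.0%, 55.9 to 58.1), 1963 to coding sequence (24.9%), 1340 to exons without a finer class (17.0%) and 79 to 5′-UTRs. Of 385 peaks in non-coding hosts 376 were assigned to exons. The median fold was 21.9 in 3′-UTRs, 14.3 in coding sequence and 12 in 5′-UTRs. A listed site of the pattern was present in 49.9% of 3′-UTR peaks, 61.1% of coding peaks and 67.1% of 5′-UTR peaks, with median peak lengths of 210, 181 and 180 bases. These shares were not set against other stretches of the same transcripts.

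Measured to the end of the RefSeq gene, 7589 of the 7892 peaks could be placed. The centre of a 3′-UTR peak lay a median of 716 bases from the gene end (quartiles 270 and 2191), and 42.2% lay within 500 bases of it. Of the unclassified exon peaks 34.1% lay within 500 bases of the end and of the coding peaks 9.66%. Few peaks were near the start. Of 64 placed 5′-UTR peaks 27 lay within 500 bases of it, and of 1873 coding peaks 46.

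**Figure D2:**
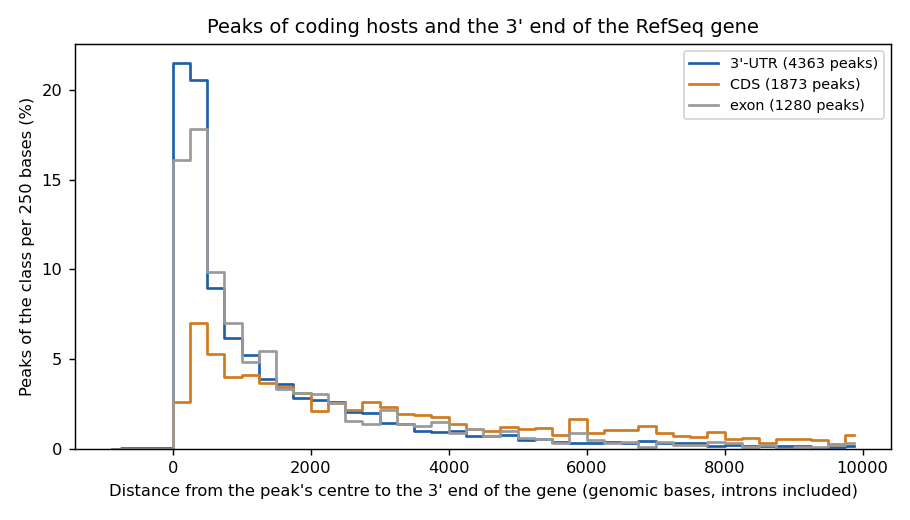
Distance in genomic bases from the centre of each peak to the 3′ end of its RefSeq gene (horizontal axis, up to 10000), as percent of the peaks of each class per 250 bases (vertical axis), for protein-coding hosts. The 3′-UTR peaks and the unclassified exon peaks crowd within the first 500 bases, with 42.2% and 34.1% of their peaks there, and coding peaks spread further.

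The position moved with the length of the host. In genes under 1000 bases of exon, 39.7% of 229 peaks lay in 3′-UTRs and 47.2% in coding sequence. In genes of 6000 bases or more, 69.5% of 1329 peaks lay in 3′-UTRs and 19.5% in coding sequence. Between 1 and 100 FPKM the 3′-UTR share stayed between 55.6% and 59.6%, and it was 41.5% of 205 peaks from 100 to 500 FPKM and 6 of 34 peaks over 500. The position also moved with the number of peaks, as 57.3% of the peaks of hosts with 1 peak lay in 3′-UTRs and 18.8% in coding sequence, 49.7% and 31.4% in hosts with 4, and 48.7% and 21.5% in the 28 hosts with 5 or more.

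**Figure D3:**
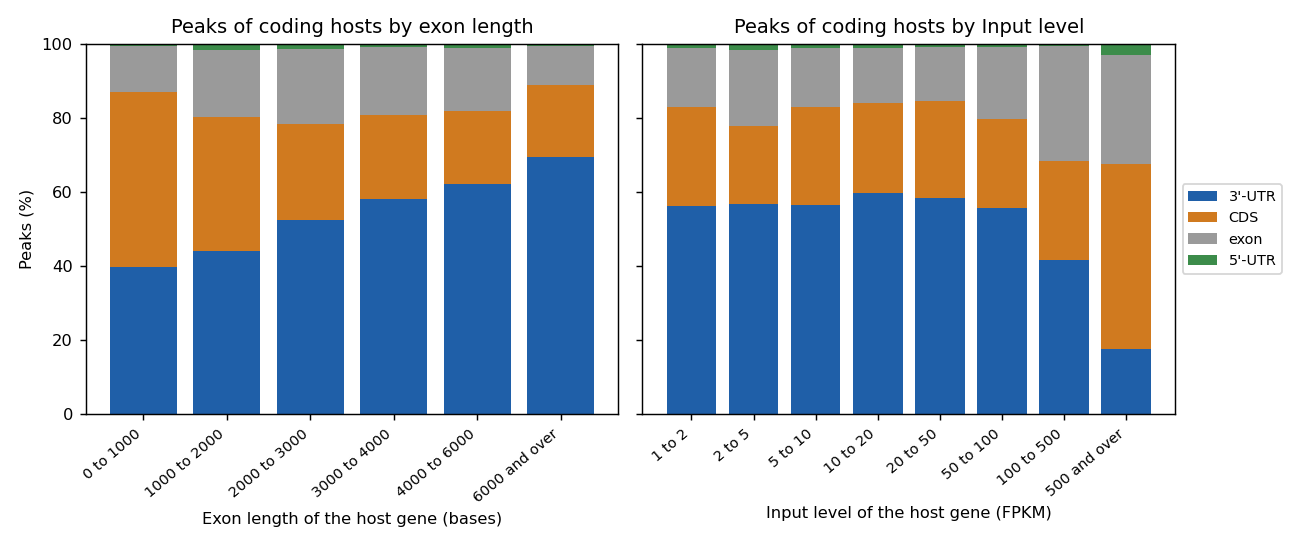
Position of the peaks of protein-coding hosts as percent of peaks (vertical axis), in stacked bars by exon length of the host in bases (left) and by Input level in FPKM (right). Colours mark 3′-UTR, coding sequence (CDS), unclassified exon and 5′-UTR, and the few peaks at start and stop codons are left out. The 3′-UTR part grew from 39.7% in the shortest to 69.5% in the longest genes and shrank above 100 FPKM.

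Folds were read with the Input in view. Among the 1998 peaks of protein-coding hosts with the highest folds (45.8 or more) 61.9% lay in 3′-UTRs and 16.6% in coding sequence, against 45.4% and 36.1% among the 1971 with the lowest folds (under 10.1). The median of the highest fold per protein-coding host was 21.9 from 1 to 2 FPKM, 35.3 from 20 to 50 and 7.88 over 500. Of the 6692 folds between 5 and 100 in hosts, 71.2% fell on whole multiples of 1.041 within 0.055, where folds spread evenly would do so in 10.6%. The share on these steps was 89.6% from 1 to 2 FPKM, 52.3% from 20 to 50 and 19.6% from 100 to 500. The same fold recurred at unlike Inputs, such as 57.3 in DMBX1 (1.004 FPKM) and POU2F1 (5.80). The origin of the steps was not tested. Folds are given below as a description only and not as a ratio to the gene's Input.

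**Figure D4:**
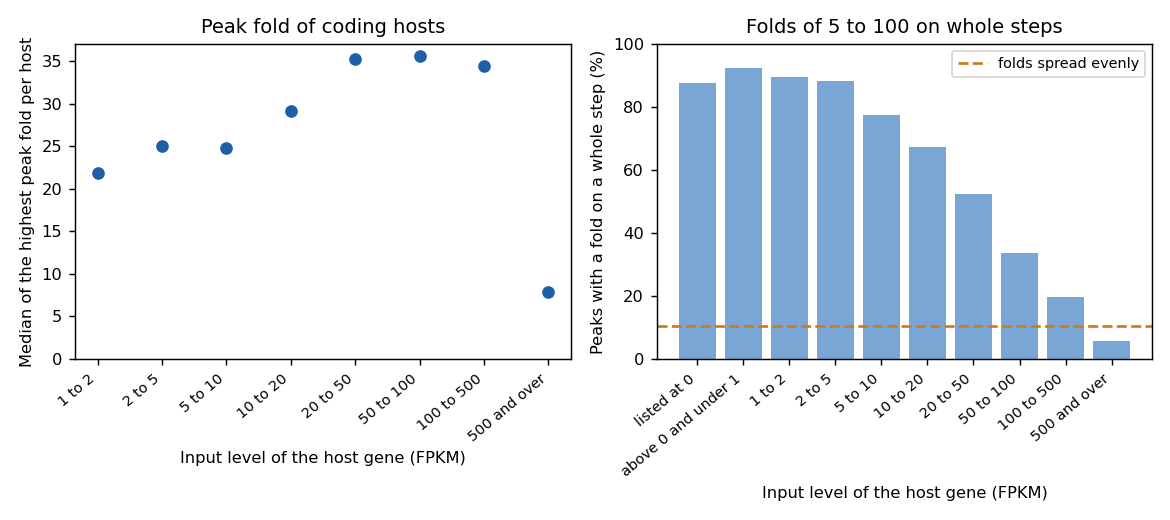
Left, the median over protein-coding hosts of the highest peak fold per host (vertical axis) in each bin of the Input level in FPKM (horizontal axis), from 21.9 in the lowest bin to 35.7 at 50 to 100 and 7.88 over 500. Right, percent of peaks with folds of 5 to 100 that lie on whole multiples of 1.041, by Input level of the host including hosts under 1 FPKM, with the share expected for evenly spread folds as a dashed line at 10.6%.

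Among hosts with at least 1 FPKM, the highest folds belonged to CTSB, the lysosomal cathepsin B (13000, at 39.8 FPKM), KRT7, a keratin of simple ductal epithelia (10200, at 1.71), MT2A (5480, at 7.203), and TRIR and LY6E, the latter a membrane protein induced by interferon (5030 each, at 33.0 and 17.7). In the DLD-1 peak list the same genes reached 507, 881, 706, 207 and 284. In the acRIP table the Input labelled DLD-1 put CTSB at 119 FPKM, MT2A at 21.8 and KRT7 at 2.82. The CTSB and MT2A values were about 3 times those of the Input labelled SW480. In the RIP table, however, the Input labelled SW480 put CTSB at 87.1 FPKM, MT2A at 30.3 and KRT7 at 1.91. In all, 937 hosts had a fold of at least 100 and 35 a fold of at least 1000. Protein-coding genes with an Input labelled SW480 more than 4 times below that labelled DLD-1 (after adding 0.1 to each) were hosts in 51.8% of 170 cases, at a median Input of 2.03 FPKM. Of 545 genes more than 4 times above it 22.2% (18.8 to 25.9) were hosts, at a median Input of 3.89. Among 7914 genes within 2-fold 54.1% (53.0 to 55.2) were hosts, at a median Input of 7.65. A DLD-1 peak was listed for 28.2%, 26.8% and 61.1% of these groups in the same order.

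Gene lists were described by role, and each list's share of hosts is set beside the share of all protein-coding genes in the same Input bins as its members. Of 42 lists with at least 10 expressed members, leaving aside the genes the study followed and the cell type markers, 7 had an interval above that share and 6 one below it. With exon length taken in as well, 6 stayed above and 5 below, among the latter the mitochondrially encoded genes, which are mostly short tRNA genes. Such shares are counts over genes of 1 library and not tests. A gene given below without a peak had none in the SW480 list, and some such genes had a DLD-1 peak. Among genes without a SW480 peak and with at least 1 FPKM in both Inputs, 27.5% of 6516 did. The FPKM of a gene without a peak is that of the Input labelled SW480, whose label the markers go against. Some such genes were far lower in the Input labelled DLD-1, such as BMP4 (171 and 18.8) and SLC12A2 (50.1 and 5.73). Others were not, such as MARS (34.5 in both) and USP9X (22.3 and 27.1). Whether these levels hold for the RNA that was pulled down was not tested. Members of a family with near-identical copies or pseudogenes, such as ribosomal protein, histone, tubulin and keratin genes, can share reads, and their values are uncertain to that extent.

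**Figure D5:**
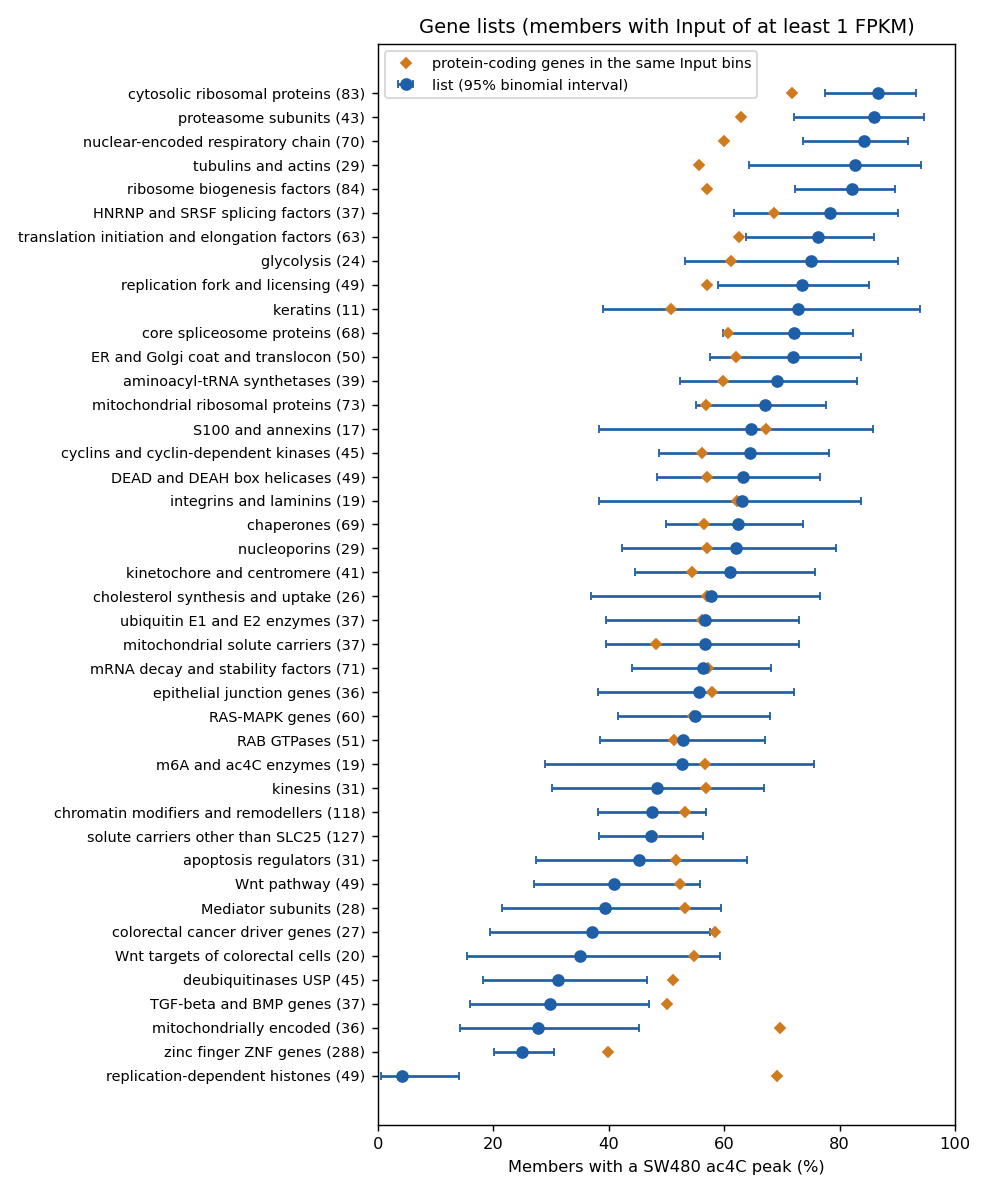
Percent of expressed members with a SW480 ac4C peak (horizontal axis) for 42 gene lists (vertical axis, number of members in brackets). Circles with bars give the list and its exact 95% binomial interval, and diamonds give the share of protein-coding genes in the same Input bins. Ribosomal, proteasome and respiratory chain genes stand highest, up to 86.7%, and replication-dependent histones lowest at 4.08%.

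Genes of protein synthesis were often hosts. Of 83 cytosolic ribosomal protein genes 72 had a peak (86.7%, 77.5 to 93.2), against 71.8% of protein-coding genes in the same bins, at a median Input of 153 FPKM. Their 128 peaks lay in 3′-UTRs in 12 cases, in coding sequence in 37 and in unclassified exons in 79. RPS19, of the small subunit, had the highest fold (763, at 127 FPKM), followed by RPL24, of the large subunit (200, with 4 peaks, at 153). RPL41 and RPS29 had no peak at 737 and 328 FPKM, but in the RIP table the Input labelled SW480 put them at 47.4 and 11.9 FPKM. Translation factors counted 48 hosts of 63 (76.2%, 63.8 to 86.0, beside 62.6%), an excess that no longer cleared the interval when length was matched as well (64.6%). EIF6, which keeps ribosomal subunits apart, had a fold of 942 at 23.1 FPKM, in a peak shared with another gene on its strand, and EIF3A, the scaffold of initiation factor eIF3, had no peak at 125.

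Of 84 ribosome biogenesis factors 69 were hosts (82.1%, 72.3 to 89.6, beside 57.1%), and 44 of them had at least 2 peaks. NOC2L, a nucleolar histone acetyltransferase inhibitor, had a fold of 1360 at 9.78 FPKM, in a peak that overlapped one of a gene on the opposite strand, and NCL, the abundant nucleolar protein nucleolin, one of 496 at 122, whereas MPHOSPH10 and EBNA1BP2 had no peak at 17.4 and 16.05. Their 128 peaks were split evenly, with 52 in 3′-UTRs and 52 in coding sequence. Aminoacyl-tRNA synthetases had 27 hosts of 39 (69.2%, 52.4 to 83.0, beside 59.8%) and mitochondrial ribosomal proteins 49 of 73 (67.1%, 55.1 to 77.7, beside 56.9%), and both intervals held the comparison value. EPRS, which charges glutamate and proline, had a fold of 402 at 90.2 FPKM, and QARS and MARS had no peak at 41.1 and 34.5.

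In mitochondria, 59 of 70 nuclear genes of the respiratory chain were hosts (84.3%, 73.6 to 91.9, beside 60.0%). COX4I1, a subunit of cytochrome c oxidase, had 3 peaks with a highest fold of 1420 at 38.7 FPKM, and COX7C of the same complex had none at 303. Of the genes encoded in mitochondrial DNA, 8 of 13 protein genes, both rRNA genes and none of 21 tRNA genes had a peak. Together 10 of 36 were hosts (27.8%, 14.2 to 45.2, beside 69.7%). This list stayed below its comparison value when length was matched as well (58.8%), with lengths solved for 29 members. Its 21 tRNA genes had a median length of 68.5 bases, under the shortest listed peak (112), so the share of the whole list is not informative for them. The 13 protein genes alone gave 61.5% (31.6 to 86.1), an interval that held both comparison values of the list. MT-CO2, at 11052 FPKM the most abundant protein-coding host, had a fold of 8.02, and MT-ND1 had no peak at 12137 FPKM. MT-RNR2, the large mitochondrial rRNA, had a fold of 66.5 at 336 FPKM. Mitochondrial solute carriers had 21 hosts of 37 (56.8%, 39.5 to 72.9, beside 48.3%).

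Replication-dependent histones had the lowest share of the 42 lists. Of 49 expressed histone genes 2 had a peak (4.08%, 0.498 to 14), against 69.2% of protein-coding genes in the same bins, although their median Input was 81.5 FPKM. Those with a peak were HIST1H2BC (fold 9.37, at 134 FPKM) and HIST3H2BB (fold 8.33, at 3.50). The linker histones HIST1H1C and HIST1H1E had none at 501 and 421. Their messages end in a stem-loop and carry no poly(A) tail, and the median exon length was 509 bases. Among protein-coding genes under 1000 bases with at least 20 FPKM, 82 of 106 that are not histones were hosts (77.4%, 68.2 to 84.9). Of the histones in this range 1 of 33 was. The lengths were not alike, with a median of 800 bases at 51.0 FPKM for the other genes and 411 bases at 113 FPKM for these histones. In the Input labelled DLD-1, 2 of 50 expressed histone genes were hosts.

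Among regulators of transcription the ZNF genes stood below their comparison value. Of 288 zinc finger ZNF genes 72 had a peak (25%, 20.1 to 30.4, beside 39.8%), at a median Input of 3.47 FPKM. ZNF664 had a fold of 310 at 21.3 FPKM, and ZNF703 had no peak at 24.8. Chromatin modifiers and remodellers had 56 hosts of 118 (47.5%, 38.2 to 56.8, beside 53.3%) and Mediator subunits 11 of 28 (39.3%, 21.5 to 59.4, beside 53.1%). SMARCD2, a subunit of SWI/SNF remodellers, reached a fold of 757 at 27.5 FPKM. ARID1A of the same complexes and the maintenance DNA methyltransferase DNMT1 had no SW480 peak at 30.1 and 30.3. In the DLD-1 list DNMT1 had 7 peaks and ARID1A none.

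Genes of RNA processing were spread around the comparison values. Core spliceosome proteins had 49 hosts of 68 (72.1%, 59.8 to 82.3, beside 60.7%), HNRNP and SRSF factors 29 of 37 (78.4%, 61.8 to 90.2, beside 68.6%), DEAD and DEAH box helicases 31 of 49 (63.3%, 48.3 to 76.6, beside 57.1%) and mRNA decay factors 40 of 71 (56.3%, 44.0 to 68.1, beside 57.2%). All of these intervals held the comparison value. LSM4, of the U6 snRNA ring, had a fold of 765 at 22.5 FPKM, PRPF8, at the core of the spliceosome, 632 at 70.5, and HNRNPM 581 at 50.9. The helicase DDX5 had a fold of 431 at 101 FPKM and its close relative DDX17 no peak at 72.2. Of 19 writers, erasers and readers of m6A and ac4C 10 were hosts (52.6%, 28.9 to 75.6, beside 56.7%), with METTL5, an 18S rRNA methyltransferase, highest at a fold of 44.2.

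Among genes of the cell cycle, replication factors had 36 hosts of 49 (73.5%, 58.9 to 85.1, beside 57.1%). RPA1, which coats single-stranded DNA, had a fold of 454 at 10.8 FPKM and the topoisomerase TOP2A 271 at 99.6, and CLSPN, a checkpoint mediator at the fork, had no peak at 17.9. Cyclins and their kinases had 29 of 45 (64.4%, 48.8 to 78.1, beside 56.2%) and kinetochore genes 25 of 41 (61%, 44.5 to 75.8, beside 54.5%). CDC25B, a phosphatase that activates mitotic kinase, had a fold of 866 at 48.8 FPKM. Kinesins had 15 hosts of 31 (48.4%, 30.2 to 66.9, beside 56.9%). KIF2C, which takes microtubules apart, led them with a fold of 238 at 38.9 FPKM, and KIFC1, a minus-end motor, had no peak at 31.3.

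In the cytoskeleton, tubulins and actins counted 24 hosts of 29 (82.8%, 64.2 to 94.2, beside 55.6%), with TUBA4A at a fold of 655 and TUBA1C at 377, the latter in a peak that overlapped one on the opposite strand. Of 11 expressed keratins 8 were hosts (72.7%, 39.0 to 94.0, beside 50.8%), an interval that held the comparison value, with a median highest fold of 260 against 27.1 over all hosts. KRT15, of basal epithelia, had a fold of 2490 at 1.48 FPKM, and KRT20, of differentiated intestine, had no peak at 20.5. KRT18 and KRT19, of simple epithelia, had folds of 282 and 384 at 541 and 251 FPKM. Of the 44 keratin genes under 1 FPKM some also had peaks, such as KRT13 above. Epithelial junction genes had 20 hosts of 36 (55.6%, 38.1 to 72.1, beside 57.9%), with 22 of their 25 peaks in 3′-UTRs, and the adhesion genes EPCAM and CDH1 had no peak at 214 and 100 FPKM. Among S100 proteins and annexins 11 of 17 were hosts (64.7%, 38.3 to 85.8, beside 67.2%), near the comparison value. S100A6 had a fold of 1230 at 139 FPKM and S100A4 one of 635 at 5.67, with 122 FPKM in the Input labelled DLD-1, whereas S100P had no peak at 135. Integrins and laminins had 12 hosts of 19 (63.2%, 38.4 to 83.7, beside 62.2%), led by LAMA5 with 4 peaks and a fold of 442, and collagens 2 of 5 (beside 28.1%), and both intervals held the comparison value.

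The turnover of proteins was divided. Of 43 proteasome subunit genes 37 were hosts (86.0%, 72.1 to 94.7, beside 62.98%), and their 62 peaks lay in coding sequence in 28 cases and in 3′-UTRs in 17. PSMD4, the ubiquitin receptor, had a fold of 383 at 33.2 FPKM, and PSMD3 no peak at 31.6. Of 45 deubiquitinases of the USP family 14 were hosts (31.1%, 18.2 to 46.6, beside 51.0%), such as USP5 with a fold of 127 at 22.3 FPKM, whereas USP7 and USP9X had no peak at 19.9 and 22.3. With DLD-1 peaks over the Input labelled DLD-1 the share of USP genes was 56.1%, above this interval. DLD-1 peaks were also more frequent in general, in 72.3% against 64.4% of protein-coding genes with at least 5 FPKM in both Inputs. No DLD-1 comparison value stands beside the list, so the move is not read as particular to USP genes. Ubiquitin E1 and E2 enzymes had 21 of 37 (56.8%, 39.5 to 72.9, beside 56.1%), with UBE2S at a fold of 1380, and chaperones 43 of 69 (62.3%, 49.8 to 73.7, beside 56.5%), with HSPA5, the chaperone of the endoplasmic reticulum, at 446.

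For membranes and metabolism, coat and translocon genes had 36 hosts of 50 (72%, 57.5 to 83.8, beside 62.05%), RAB GTPases 27 of 51 (52.9%, 38.5 to 67.1, beside 51.2%) and solute carriers other than SLC25 60 of 127 (47.2%, 38.3 to 56.3, beside 47.6%). The amino acid carrier SLC7A5 had 5 peaks and a fold of 3030 at 86.8 FPKM, and the ion carrier SLC12A2 had none at 50.1. Glycolysis genes had 18 of 24 (75%, 53.3 to 90.2, beside 61.3%), with HK1 at a fold of 435, and cholesterol genes 15 of 26 (57.7%, 36.9 to 76.6, beside 57.1%), with FDPS without a peak at 55.03 FPKM.

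Among signalling genes the TGF-beta and BMP list stood below its comparison value. Of 37 TGF-beta and BMP genes 11 were hosts (29.7%, 15.9 to 47.0, beside 50.2%). ID1, an inhibitor of differentiation, had a fold of 156 at 54.96 FPKM, and the ligand BMP4 had no peak at 171. Colorectal cancer driver genes had 10 hosts of 27 (37.0%, 19.4 to 57.6, beside 58.5%), an interval that held the value when length was matched as well (56.8%). With DLD-1 peaks over the Input labelled DLD-1 their share was 62.96%, with the limit given for the USP genes. Wnt pathway genes had 20 of 49 (40.8%, 27.0 to 55.8, beside 52.3%) and Wnt targets of colorectal cells 7 of 20 (35.0%, 15.4 to 59.2, beside 54.8%). WNT7B, a ligand, had 5 peaks and a fold of 231 at 2.70 FPKM. AXIN2, a feedback target of the pathway, had no peak at 45.9 FPKM, nor had SOX9, a transcription factor of crypt cells, at 205. RAS-MAPK genes had 33 of 60 (55%, 41.6 to 67.9, beside 54.7%) and apoptosis regulators 14 of 31 (45.2%, 27.3 to 64.0, beside 51.6%), and FOS had no peak at 111 FPKM.

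Of the 14 genes the study followed, 11 were hosts, against 67.3% of protein-coding genes in the same bins. The study chose several of them on these libraries, so this count is no independent evidence. KIF23 had 1 peak of 270 bases in its 3′-UTR (chr15:69448128-69448397) with a fold of 67.7 at 20.2 FPKM, which holds the site printed above and no other listed one. NAT10 itself had 3 peaks at 12.96 FPKM, 2 in its coding sequence (folds 27.1 and 8.33) and 1 in the 3′-UTR (17.0). CTNNB1, which encodes beta-catenin, had 2 peaks in the 3′-UTR, with folds of 157 and 7.42 at 30.7 FPKM and no listed site in either. HNRNPA2B1, a splicing factor, had 5 peaks at 89.5 FPKM with folds of 7.63 to 30.0, all in unclassified exons. NAP1L4, a histone chaperone, had 2 peaks (48.9 and 4.16) and BIRC5, the apoptosis inhibitor survivin, 3 (27.1, 14.6 and 14.6), all in 3′-UTRs. POU2F1, UBA1, GSK3B, CCND1 and MYC had 1 peak each, with folds of 57.3, 24.1, 15.4, 15.8 and 8.56. HNRNPH3 at 22.4 FPKM, MPP6 at 2.40 and the survival gene BCL2L1 at 71.3 had no SW480 peak. In the DLD-1 list HNRNPH3 had 4 peaks and MPP6 had 2.

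Of the 5636 hosts 5464 also reached 1 FPKM in the Input labelled DLD-1, and 78.3% of these had a DLD-1 peak, against 27.5% of 6516 genes without a SW480 peak.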

How the data were processed

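Groups were taken from the titles. For the Inputs, the authors deposited gene values that they do not name, read here as FPKM like those of the RIP table. The deposited peak lists, called per library and on pooled libraries, give a p-value, the base-10 logarithms of p and of the false discovery rate (FDR), each read here as a score, a fold (ratio of acRIP over Input in the peak) and listed motif sites. The submitters' processing notes name cutadapt 2.5, HISAT2 2.1.0 and GRCh38; the peak caller, the counting tool and their strand setting are not given in the sources used here. For 450 SW480 peaks the FDR is a spreadsheet error and was taken as below 0.05.

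Hosts were matched to peaks by Ensembl ID, at an Input of at least 1 FPKM. Starts were moved to count from 1. FPKM values step by whole fragments, and the steps gave relative depths. With 69 of 136 snoRNA genes fixing the scale against RefSeq lengths (GRCh38.p14), the Input labelled SW480 had about 11 fragments per kilobase at 1 FPKM and that labelled DLD-1 10.8; the acRIP depth is unknown. Exon lengths were solved from the 4 RIP-table columns for genes with at least 50 reads in all, and in simulated data 93.9% of 380 genes got their true length. Intervals and limits (3 counts of the total) cover counting only, since PCR copies are not independent.

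The acRIP over Input ratio per gene was planned, but no acRIP expression column was used here. The peak fold is described in its place and is not that ratio. Named genes follow a rule on name, number of peaks, fold and Input, with up to 2 hosts and 2 other genes per list, and those printed are a part of the genes it names, picked with their values known. For hosts under 1 FPKM, genes were chosen by fold after their values were seen. Members and lists were chosen with earlier results of these data known. Python 3.11, pandas and SciPy were used.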

Additional observations from a re-analysis of the deposited data

Results flagged for a closer look

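The Input table lists 482 genes at 0 in the Input labelled SW480 that nevertheless had a SW480 peak, a signal outside the hosts described above. Of these, 303 were listed at 0 in both Inputs, and 180 of the 303 also had a DLD-1 peak. Their median highest fold was 23.6, against 27.1 for hosts with at least 1 FPKM, and 90 of the 482 had a fold of at least 100. S100A9, a calcium-binding protein of squamous and myeloid cells, had a fold of 6710 in SW480 and 1230 in DLD-1 and was listed at 0 in every Input. BST2 (4440), CITED4 (3330) and CALB2 (2660) were listed at 0 in the Input labelled SW480 and were at 22.2, 9.34 and 14.2 FPKM in that labelled DLD-1. These genes were chosen after their values were seen, and the source of their signal was not tested.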

How the results depend on the processing

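The share of hosts among all genes (39.49%) was 31.56% with an Input above 0, 52.11% and 59.06% with at least 5 and 10 FPKM, 38.02% over the SW480 Input of the RIP table, 38.1% over the DLD-1 Input, 37.63% with FDR below 0.05, 24.34% with folds of at least the list's median, 49.38% with the pooled peak list and 50.56% in protein-coding genes. From 1 to 2 FPKM (15.85%) it was 25.49% in protein-coding genes, 11.62% over the RIP-table Input and 8.344% with the fold filter, and from 20 to 50 FPKM (64.47%) it was 73.36% in protein-coding genes and 42.71% with the fold filter. The share of hosts with several peaks (34.46%) was 33.14% with FDR below 0.05, 15.66% with the fold filter and 35.77% in protein-coding hosts. The 3′-UTR share of all host peaks (54.46%) was 59.38% with the fold filter, 58.77% with 1 peak per host and 52.98% with hosts under 1 FPKM. Fewer peaks or genes enter under each filter by construction, and the cause of the other moves was not tested.

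Over the Input labelled DLD-1, chosen after seeing the data for the binned, position and list shares, 44 of 44 lists with at least 10 expressed members, the genes the study followed and the colorectal markers included, stayed within their interval. With at least 5 FPKM 38 did, with DLD-1 peaks over the DLD-1 Input 31 and with the fold filter 14. Among the 13 lists that left theirs with DLD-1 peaks, Mediator subunits reached 73.33%, mitochondrial ribosomal proteins 92.96% and m6A and ac4C enzymes 84.21%. Solute carriers other than SLC25 fell to 37.41%. Of the lists below their comparison value, the USP genes (56.1%) and the driver genes (62.96%) left their intervals with DLD-1 peaks over the DLD-1 Input. Histones (4%), ZNF genes (30.21%), TGF-beta and BMP genes (40%) and mitochondrially encoded genes (34.29%) stayed within theirs. The alternatives for the ratio of acRIP over Input per gene were not run. The part of depth in the lower share of hosts near 1 FPKM was not tested, and with 1 library per group no spread between samples is known. No paired analysis was possible because the result comes from no test.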
